A study of Schmidtea mediterranea with 48 samples.

Results

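The 289 features described here are transcripts of the planarian Schmidtea mediterranea whose level was at least 2-fold lower late after RNA interference (RNAi) against zfp1, and that largely kept their level after RNAi against pax5 or sox8. They were chosen among the 28413 features of the expression table by their mean RPKM (a read count divided by feature length and by library size) in each group. A member had a mean of at least 1 RPKM over all 48 libraries, a log2 ratio of zfp1 to control of -1 or less on day 18 but above -1 on day 12, a log2 ratio of pax5 to control above -1 on day 18, and a mean log2 ratio of sox8 to control over the 3 days above -0.5. Of 606 features with a day 18 zfp1 ratio of -1 or less at this level of expression, 232 had already reached -1 on day 12. The other 374 had not, and of these 79 were at -1 or less in pax5 as well, which left 295. The sox8 condition removed 6 more.

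Whole worms of the clonal line CIW4 received 3 meals of liver paste mixed with bacteria that make double-stranded RNA, and polyadenylated RNA was sequenced on day 6, 12 or 18. The RNAi targeted zfp1, pax5 or sox8, or unc22, a nematode muscle gene used as a non-targeting control, so all groups, controls included, ate bacteria with double-stranded RNA. With 4 libraries in each of 12 groups there were 48 libraries, and neither pooling of worms nor the origin of the replicates is given in the labels. The deposited table names features by SMED30 identifiers without gene names, so members are given by identifier, the levels of zfp1, pax5 and sox8 themselves were not checked, and neither was the labelled tissue against its markers. In whole worms, fewer cells of a type and less RNA per cell cannot be told apart.

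Planarians replace their tissues throughout life from dividing stem cells called neoblasts. zfp1 encodes a zinc finger protein of a neoblast subset that supplies the epidermis, and in this species its loss is known to stop the production of epidermal cells. Newly made epidermal cells leave the cell cycle and pass through a series of states, each with its own transcripts, while they move outward to the body surface. pax5 and sox8 are named after paired box and Sox families of transcription factors, which in many animals act in the choice and maturation of cell types.

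Sequencing depth ran from 6894458 to 65663283 reads per library (median 23162611), from whole reads recovered from the RPKM values. All 289 members passed the filter used for testing, and at the median depth 3 reads on a member of median length corresponded to 0.138 RPKM. A pair of day 6 libraries, pax5 replicate 3 and zfp1 replicate 1, lay over 2 SD out on the main component of spread within groups, which held 9.94% of that spread. The 5 contrasts tested on days 6 and 12 were also counted without them, while the overlap of lists and the difference of pax5 effects between days were not.

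The members covered a wide range of abundance. In control worms on day 18 they ran from 1.14 to 1155 RPKM with a median of 9.05, against 9.15 for the 19094 features with a mean of at least 1 RPKM, and 138 members stood at 10 RPKM or more and 23 at 100 or more. The 10 most abundant members made up 44.9% of the members' summed RPKM. Their inferred length had a median of 973 bases (range 219 to 6541), against 1217 bases for all features of that level.

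The choice fixed the level on day 18 of zfp1 RNAi, so those values are a description. The members' summed share of all RPKM was 1.38 ± 0.0289% in control and 0.536 ± 0.0305% in zfp1 libraries (SD, n = 4), 1.20 ± 0.0321% in pax5 libraries and 1.27 ± 0.0272% in sox8 libraries. The single zfp1 libraries ran from 0.511% to 0.581% and the single control libraries from 1.36% to 1.42%. Over members, the day 18 log2 ratio of zfp1 to control had a median of -1.21. It lay between -1 and -1.5 in 222 members, between -1.5 and -2 in 55, and at -2 or less in 12, so most of the group sat close to the limit that chose it. SMED30002886 (8.18 RPKM in control, 4.09 in zfp1, ratio -1.0004) and SMED30020643 (33.3 and 16.6, ratio -1.0008) were the members nearest to that limit. SMED30000423 (1.55 and 0.777 RPKM, ratio -0.9999) and SMED30034789 (1.59 and 0.798, ratio -0.9996) met the rest of the rule and were just outside. In 279 of the 289 members all 4 zfp1 libraries of day 18 lay under all 4 controls, and limma, a linear model with moderated variances, called 286 lower. Of all features tested, 14.5% lay without overlap under the controls and 14.5% were called lower, and since the rule used this contrast nothing is read from these counts.

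**Figure D1:**
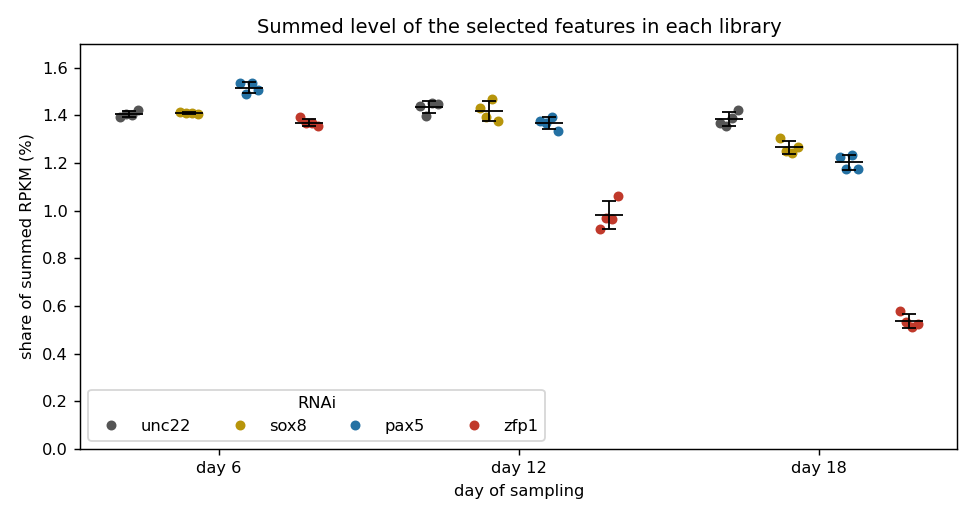
The summed RPKM of the 289 features as a percentage of all RPKM in each library (y axis), by day of sampling (x axis) and RNAi (colour); each point is 1 library and the bars give the mean and SD of 4. The zfp1 means run from 1.37% on day 6 to 0.980% on day 12 and 0.536% on day 18, while the means of the other arms lie between 1.20% and 1.52%.

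SMED30026425 was among the most abundant members and had one of the lowest zfp1 ratios (-3.09). Its control libraries of day 18 held 328, 337, 354 and 353 RPKM and its zfp1 libraries 49.1, 38.6, 45.5 and 28.0 RPKM. Every zfp1 library was far under every control. On day 12 the zfp1 libraries were still at 221, 235, 245 and 286 RPKM against 336 to 370 in controls. The rule kept the day 12 ratio above -1 and this member was picked by its day 18 ratio, so nothing is read from the timing. SMED30024477 had the lowest ratio (-5.19) but is a rare transcript: it had 37, 28, 64 and 40 reads in the control libraries of day 18 and 1, 0, 0 and 4 reads in the zfp1 libraries. Its size therefore rests on 5 reads.

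The most abundant pair of members had ratios near the group's median (-1.22 and -1.35). SMED30026808 stood at 1166, 1176, 1133 and 1147 RPKM in controls and at 539, 499, 503 and 442 RPKM in zfp1 libraries on day 18, and SMED30029019 at 663 ± 40.4 RPKM in controls and 260 ± 34.5 in zfp1 libraries (SD, n = 4). The groups did not overlap for either. In sox8 libraries of the same day these stood at 992 ± 14.9 and 561 ± 25.4 RPKM (SD, n = 4), also under the control means.

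The members' median zfp1 ratio of day 12 lay between those of days 6 and 18, an order that the rule partly set. On day 12, which the rule used only to keep members above -1, the median log2 ratio was -0.46, and 273 members were below 0 and 16 above. Of all features with a mean of at least 1 RPKM, 52.1% were below 0. Limma called 189 members lower (8.14% of all features tested were called lower, and the rule used this contrast). The sox8 contrasts, also used by the rule, had 2 members called lower on day 6, 2 on day 12 and 10 on day 18. These are 0.692%, 0.692% and 3.46% of the members, beside 0.397%, 0.243% and 0.706% of all features. The 4 zfp1 libraries of day 12 differed among themselves: the median difference of the members from the control mean was -0.52, -0.41, -0.48 and -0.29 in replicates 1 to 4, on the scale of log2(RPKM + 0.5). On day 18 these values were closer to each other, from -1.16 to -1.10.

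**Figure D2:**
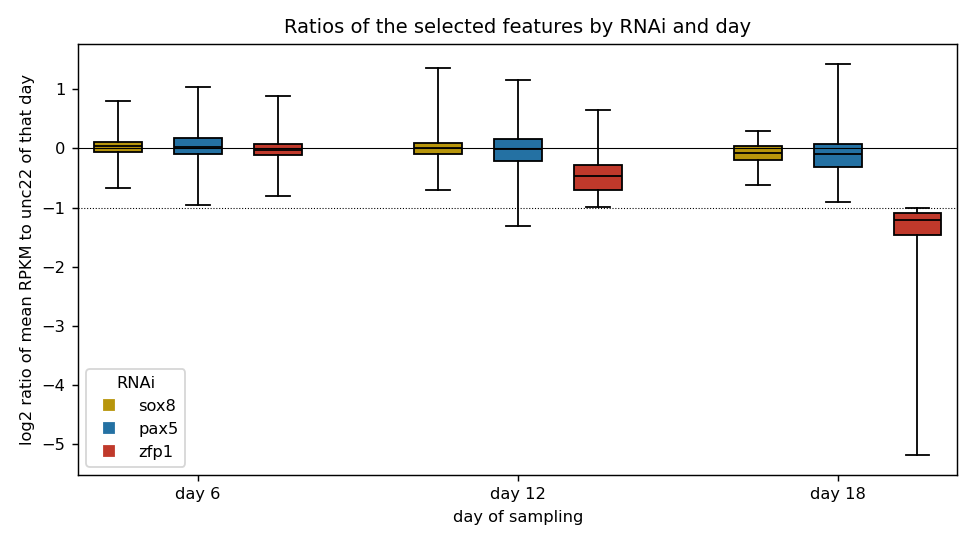
The log2 ratio of mean RPKM to the unc22 mean of the same day (y axis) for the 289 features, by day (x axis) and RNAi (colour); boxes give the quartiles, the line the median and the whiskers the full range. The zfp1 medians of days 12 and 18 are -0.46 and -1.21 while the pax5 and sox8 medians lie between -0.09 and 0.03, and the dotted line at -1 marks the limit that fixed the day 18 zfp1 values.

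Day 6 of zfp1 RNAi was not used by the rule, and asks whether the members were already lower then. The median log2 change was -0.02, against 0.00 over all features tested, and limma called 5 members lower and 0 higher (adjusted p under 0.05, Benjamini-Hochberg over 22667 features). These are 1.73% of members. Of all features 1.36% were called in this contrast, 0.631% lower and 0.728% higher. An unadjusted limma p under 0.05 was found for 34 members, in either direction. It was not counted over all features, so nothing is read from that number. Limma with voom weights called 10 members lower and 0 higher, beside 244 lower and 246 higher of 22667 features. The control libraries of this contrast also entered the rule, through the sox8 ratio of day 6.

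SMED30021601 showed the clearest early fall. It stood at 19.0, 20.7, 21.7 and 21.5 RPKM in controls and 17.2, 14.5, 14 and 15.2 RPKM in zfp1 libraries on day 6. No zfp1 library reached the lowest control, and the change was -0.44 in log2 units (SE 0.08, limma adjusted p = 0.000915). SMED30008102 followed with 9.72 ± 0.770 RPKM in controls and 7.17 ± 1.05 in zfp1 libraries (SD, n = 4; change -0.42, limma adjusted p = 0.0426). That call did not survive most changes of processing: it was lost without any 1 of the 4 control libraries (adjusted p = 0.0624, 0.0663, 0.166 and 0.106) and without zfp1 replicate 2, 3 or 4 (0.137, 0.114 and 0.0722). The remaining calls, listed after their values were seen, were SMED30001325 (-0.37), SMED30034099 (-0.36) and SMED30029075 (-0.18, in log2 units). The count was 3, 2 and 2 without unc22 replicates 1, 2 and 3, and 3 and 2 without zfp1 replicates 2 and 4.

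The label of the group, falls of zfp1 that are largely kept in pax5, describes its center but not each member. On day 18 the pax5 log2 ratio, which had to exceed -1, had a median of -0.09 and ran from -0.91 to 1.43. All features with a mean of at least 1 RPKM had a median of 0.02. The ratio lay within 0.5 of 0 in 242 of the 289 members and in 94.2% of those features. Limma called 52 members lower and 30 higher in pax5 libraries of day 18 (4.98% and 2.48% of all features), which is a description because the rule used this contrast.

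The pax5 libraries of days 6 and 12 were not used by the rule, although the controls of these days were, through the sox8 ratios and the zfp1 ratio of day 12. On day 12 limma called 38 members lower and 28 higher after pax5 RNAi. These are 22.8% of the members, with 6.26% of all features called, 4.2% lower and 2.06% higher. On day 6 it called 17 lower and 30 higher, 16.3% of the members, with 5.12% of all features called, 2.68% lower and 2.44% higher. The members' changes went both ways, from -0.77 to 0.94 on day 6 and from -0.92 to 1.11 on day 12 on the scale of log2(RPKM + 0.5). Their medians were 0.01 and -0.01, against 0.01 and 0.00 over all features. The balance of directions on day 6 moved with pax5 replicate 3, whose part in the result was not tested. Without it 22 members were called lower and 22 higher, beside 605 and 251 of all 22667 features (607 and 554 with it). Without both libraries that stood apart 23 members were lower and 22 higher, beside 627 and 262 of all features.

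The lists of both days, each of which has its own pax5 and control libraries, shared members. Of the 30 called higher on day 6, 17 were higher on day 12 as well (56.7% of the day 6 list and 60.7% of the 28 on day 12). Of the 17 called lower on day 6, 14 were lower on day 12 (82.4%, and 36.8% of the 38). The overlap over all features was not counted, so these shares are not read as particular to the members. A pair of members, SMED30013149 and SMED30023766, were called higher on day 6 (0.39 and 0.24) and lower on day 12 (-0.30 and -0.23, in log2 units), and 209 members were called on neither day.

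**Figure D3:**
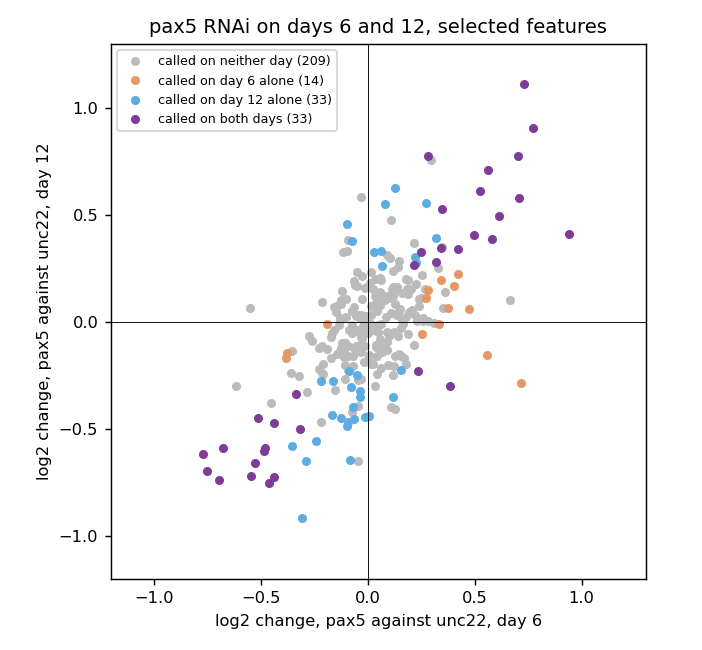
The log2 change after pax5 RNAi against unc22 on day 6 (x axis) and on day 12 (y axis), on the scale of log2(RPKM + 0.5), for the 289 features; each point is 1 feature, coloured by the days on which limma called it. Of the 33 features called on both days all but SMED30013149 and SMED30023766 lie in the lower left or upper right part.

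Among the rises, SMED30001467 stood at 3.07, 2.79, 2.83 and 3.05 RPKM in the control libraries of day 6 and at 4.97, 5.20, 6.15 and 5.22 RPKM in pax5 libraries. On day 12 the controls were at 3.37, 3.58, 3.26 and 3.24 RPKM and the pax5 libraries at 6.24, 7, 7.17 and 6.56. All pax5 libraries were above all controls on both days (changes 0.77 and 0.91 in log2 units, SE 0.10 for both, limma adjusted p = 6.05e-08 and 5.95e-10). On day 18 the pax5 libraries averaged 8.75 RPKM, the controls 3.46 and the zfp1 libraries 1.18, so this member was high in one knockdown and low in the other. The rule set the low zfp1 level of that day.

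SMED30028226 had the largest rise of day 12, from 5.91 ± 1.13 RPKM in controls to 13.2 ± 0.624 in pax5 libraries (SD, n = 4; change 1.11, SE 0.16, limma adjusted p = 8.17e-07). On day 18 it averaged 19.1 RPKM in pax5, 7.09 in control and 2.33 in zfp1 libraries. SMED30033932 led on day 6, at 2.80, 2.83, 4.05 and 3.17 RPKM in controls against 6.2, 6.65, 7.18 and 6.25 in pax5 libraries (change 0.94, SE 0.12, limma adjusted p = 7.11e-08). Its rise on day 12 was 0.41 in log2 units (SE 0.12, limma adjusted p = 0.022).

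Among the falls, SMED30000289 stood at 9.77, 10.2, 12 and 9.5 RPKM in controls and 5.49, 6.13, 6.39 and 5.83 RPKM in pax5 libraries on day 6 (change -0.75, SE 0.06, limma adjusted p = 2.58e-12). No pax5 library reached a control. The pax5 libraries of the later days held 6.41 ± 0.341 and 6.05 ± 0.430 RPKM (SD, n = 4), and the zfp1 means of the 3 days were 10.01, 8.13 and 4.56 RPKM. This member was thus under the control in pax5 libraries from day 6 on and in zfp1 libraries from day 12 on. SMED30000656 fell from 3.14 ± 0.331 to 1.64 ± 0.243 RPKM in pax5 libraries of day 6 (SD, n = 4; change -0.77, limma adjusted p = 1.53e-08) and on day 18 stood at 3.23 RPKM in pax5 and 0.914 in zfp1 libraries. On day 12, SMED30005285 fell from 19.0 ± 1.4 to 11.1 ± 0.594 RPKM (SD, n = 4; change -0.75, limma adjusted p = 1.42e-09). SMED30025087, the largest fall of that day at -0.92 (limma adjusted p = 0.00304), went from 1.71 to 0.687 RPKM and rests on 4 to 15 reads per pax5 library.

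**Figure D4:**
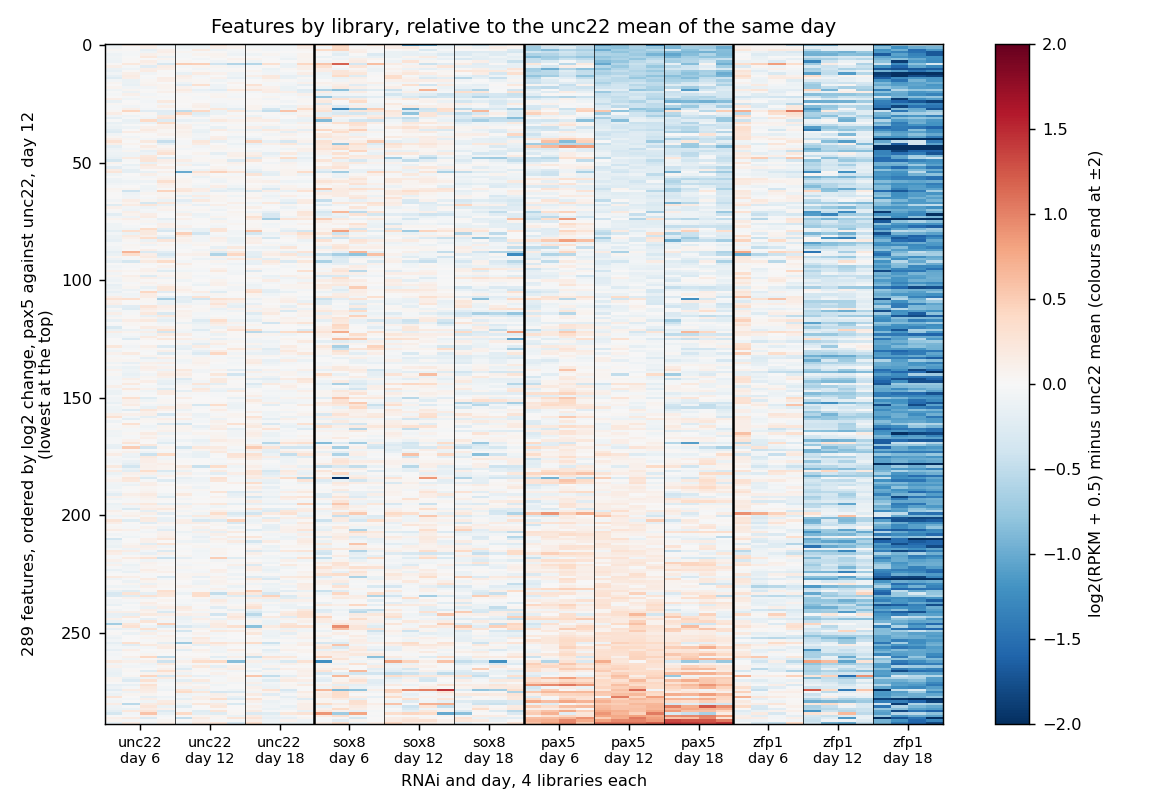
Each row is 1 of the 289 features and each column 1 library; colour gives log2(RPKM + 0.5) minus the unc22 mean of the same day, and rows run from the lowest to the highest change after pax5 RNAi on day 12. The zfp1 columns of day 18 are blue from top to bottom, while the pax5 columns run from blue at the top, where 38 features were called lower on day 12, to red at the bottom, where 28 were called higher.

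The members were also sorted by their pax5 call of day 12. The rule limited the zfp1 ratios of days 12 and 18 in every such group, so nothing is read from how alike these are. The median day 18 zfp1 ratio was -1.18 in the 28 called higher, -1.21 in the 223 not called and -1.32 in the 38 called lower, and on day 12 it was -0.48, -0.46 and -0.45. The medians of the pax5 ratio on day 18 were 0.54, -0.08 and -0.56 in the same order. In sox8 libraries of day 18 they were 0.01, -0.07 and -0.12. The day 18 control level had medians of 10.3, 8.18 and 14.1 RPKM in these groups. These values describe groups made from a measured call and were not tested.

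A comparison of zfp1 with pax5 libraries on day 6 uses no library of the rule, other than through the mean over 48 libraries. Limma called 45 members lower and 17 higher in zfp1 than in pax5 libraries. These are 15.6% and 5.88% of the members, against 4.18% and 3.55% of all features. The members' median difference was -0.03 log2 units and that of all features 0.00. Without pax5 replicate 3 the calls were 35 lower and 18 higher, beside 556 and 880 of all 22667 features (947 and 804 with it). Without both libraries that stood apart they were 40 lower and 14 higher, beside 689 and 662 of all features.

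SMED30033932 and SMED30001467, both higher in pax5 libraries of that day, had the largest differences downward (-0.96 and -0.85 in log2 units, limma adjusted p = 3.98e-08 and 4.70e-09). In the other direction, SMED30026280 stood at 2.31, 2.07, 2.25 and 2.22 RPKM in zfp1 libraries and 0.994, 0.839, 1.10 and 1.04 RPKM in pax5 libraries (difference 0.86, SE 0.12, limma adjusted p = 3.97e-07). Its controls were at 1.92 ± 0.180 RPKM (SD, n = 4). SMED30028698 stood at 33.9, 26.9, 29.5 and 28.0 RPKM in zfp1 and 15, 16, 19.7 and 14.9 RPKM in pax5 libraries on day 6 (difference 0.84, SE 0.12, limma adjusted p = 8.41e-07). On day 18 SMED30028698 stood at 4.45 ± 0.462 RPKM in zfp1 and 9.93 ± 0.625 in pax5 libraries (SD, n = 4) against 17.9 ± 2.40 in controls. The rule sets zfp1 under pax5 on that day in every member, so nothing is read from the changed order.

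The members' levels also moved with time in worms that had not received zfp1 RNAi. Within the pax5 arm, where neither day entered the rule, limma called 71 members higher and 30 lower on day 12 than on day 6. These are 24.6% and 10.4% of the members, against 11.8% and 12.3% of all features. The median change was 0.10 log2 units for members and -0.01 for all features. Without pax5 day 6 replicate 1, the deepest library, the calls were 46 higher and 26 lower, beside 1938 and 2424 of all 22667 features (2667 and 2791 with it). Without both libraries that stood apart they were 76 higher and 25 lower, beside 2959 and 2478 of all features. In controls, whose libraries the rule used, 83 members were called higher and 13 lower over the same days (10.6% and 7.33% of all features). The median log2 ratio of day 18 to day 6 in controls was 0.25 for members and 0.02 for all features of that level. The day 18 controls are the denominator of the zfp1 ratio that chose the members. A high control level on that day favours membership, so nothing is read from this median.

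SMED30033648 rose in pax5 libraries from 10.5, 11.1, 8.62 and 13.8 RPKM on day 6 to 21.1, 25.8, 24.4 and 25.8 RPKM on day 12 (change 1.12, SE 0.13, limma adjusted p = 9.83e-09). Controls took nearly the same course, from 13.2 ± 2.01 to 25.8 ± 1.08 RPKM (SD, n = 4), and zfp1 libraries went from 13.4 to 19.5 and back to 11.9 RPKM on day 18. SMED30017802 rose in pax5 libraries from 24.6 ± 3.71 to 48.2 ± 2.90 RPKM (SD, n = 4; change 0.97, limma adjusted p = 1.28e-10). Controls stood at 26.2, 34.9 and 45.6 RPKM on days 6, 12 and 18 and zfp1 libraries at 25.5, 28.8 and 20.1 RPKM, so the zfp1 libraries were lowest on the day when the controls were highest. The rule used both levels of that day, so nothing is read from their order. In the opposite direction SMED30031756 fell in pax5 libraries from 130 ± 3.18 to 74.1 ± 8.43 RPKM (SD, n = 4; change -0.81, limma adjusted p = 2.42e-09), beside 111 and 73.6 RPKM in controls. SMED30030378 fell from 5.02 to 2.54 RPKM (change -0.87, limma adjusted p = 0.00084), beside 4.35 and 2.47 RPKM in controls.

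**Figure D5:**
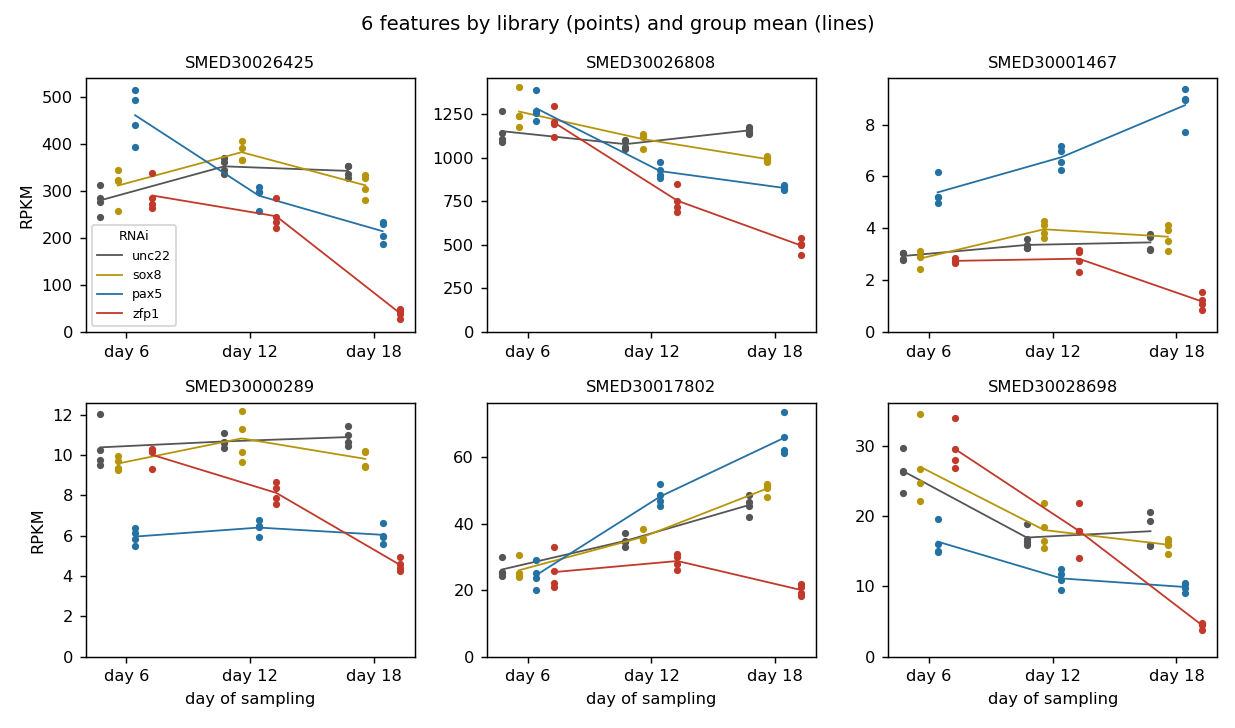
RPKM (y axis) of 6 features by day of sampling (x axis) and RNAi (colour); points are single libraries and lines join the means of 4. All 6 end at their lowest level in zfp1 libraries of day 18, while in pax5 libraries SMED30001467 and SMED30017802 end above the control, and the other 4 end under it. The rule set the zfp1 level of day 18 under the control and pax5 levels.

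Whether the pax5 effect itself changed from day 6 to day 12 was tested as the difference of both effects, a contrast added after the data were seen. Limma called it in 11 members, 7 more negative and 4 more positive on day 12 (0.679% and 0.0706% of all features). SMED30026425 had the largest difference, at -0.998 log2 units (SE 0.16, limma adjusted p = 5.62e-05). On day 6 its pax5 libraries were at 394, 442, 515 and 494 RPKM and its controls at 245, 278, 314 and 286. On day 12 they were at 298, 297, 308 and 257 RPKM against 361, 336, 370 and 344. All pax5 libraries were above the controls on the first of these days (change 0.71, limma adjusted p = 6.8e-06) and under them on the next, where limma did not call the change of -0.28 (adjusted p = 0.135). SMED30017802 moved the other way, by 0.56 (SE 0.13, limma adjusted p = 0.0243), as did SMED30001115, SMED30027324 and SMED30025549, by 0.50, 0.50 and 0.45.

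The members lowest in pax5 libraries of day 18 were chosen by that value, so their day 18 levels are a description. SMED30026459 averaged 280, 170 and 125 RPKM in pax5 libraries on days 6, 12 and 18 and 283, 231 and 235 RPKM in controls, with a day 6 change of -0.01 (limma adjusted p = 0.962). In zfp1 libraries it averaged 270, 123 and 76.2 RPKM. SMED30013312 averaged 47.7, 34.0 and 28.3 RPKM in pax5, 56.8, 30.3 and 19.8 RPKM in zfp1 and 64.7, 56.4 and 53 RPKM in control libraries, and was already lower in pax5 libraries on day 6 (change -0.44, limma adjusted p = 5.04e-06). Both were thus lower in both knockdowns on day 18, and remained members because their pax5 ratios of -0.91 were above -1.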

How the data were processed

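The authors deposited 1 table of RPKM values for 28413 features in 48 libraries; CASAVA 1.8.2, Bowtie and edgeR are named without a role in the submitters' processing notes, and the reference transcripts and the handling of multiply aligned reads are not given in the sources used here, so near-identical copies are uncertain. Whole reads and feature lengths were recovered from the RPKM values for all 28413 features (within 3.51e-08 of whole, at a tolerance of 0.0001), and each column equalled these reads over length and library size times a factor between 0.929 and 1.07. Intervals and floors from reads cover counting error only. Replicates were distinct: over 72 pairs of them, chi-square divided by its degrees of freedom ran from 1.62 to 13.5. What a replicate was is not given, so p-values rest on library-to-library spread alone, possibly technical.

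Features with a mean of at least 0.5 RPKM (22667) were tested on log2(RPKM + 0.5), which understates changes of low features, with limma 3.58.1 in R 4.3.3 (trend and robust options, all 12 groups in 1 model, two-sided, Benjamini-Hochberg over all features in each contrast, called at adjusted p under 0.05). Ratios are log2 of group mean RPKM with no pseudocount. Membership depends on that choice: with 0.5 RPKM added to each group mean the rule chose 227 features, 204 of them among the 289. The members, lists and contrasts were chosen with earlier results of these data known. Named features were the lowest and most abundant on day 18, the largest called changes of each tested contrast without overlap between groups (2 per direction), those at the limit of the rule, and the extremes of pax5 on day 18. The planned cell type markers need gene names and were not used. The difference of pax5 effects between days was added as a contrast after the data were seen. The test and the read recovery were checked on simulated data. Python 3.11.15 with numpy 2.4.6, pandas 2.3.3 and matplotlib 3.10.9 did the rest.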

Additional observations from a re-analysis of the deposited data

Results flagged for a closer look

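In 62 groups of 4 libraries, a single library was looked for that lies far from the other 3, which chance gives in about 1 of 20 groups; 4 were found. For SMED30024477 in controls of day 18, replicate 2 (1.76 RPKM) lay apart from 3.61, 3.89 and 3.67, with a gap of 0.871 of the range. For SMED30028226 replicate 1 (8.94 RPKM) lay above the 6.57, 6.41 and 6.42 of the other controls of day 18 (0.936 of the range), and replicate 4 (14.1 RPKM) above the other pax5 libraries of day 12 (0.844 of the range). For SMED30026459 in controls of day 18, replicate 3 (223 RPKM) lay under 238 to 240 RPKM (0.889 of the range).

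The effect of pax5 RNAi differed between days 12 and 6, by limma's test of the difference, in 11 members. Among the members named by rank it was -0.998 in log2 units for SMED30026425 (adjusted p = 5.62e-05), -0.379 for SMED30026808 (adjusted p = 0.00493), and 0.559 for SMED30017802 (adjusted p = 0.0243). Among the other 8, SMED30013149 had the largest difference, at -0.69 (adjusted p = 6.5e-05).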

How the results depend on the processing

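Of 132 alternatives to the counts, 124 stayed within 1.5 times; the remaining 8 all concern the members called for zfp1 on day 6 (5 in the reported fit), where the count was 1 with only the 2 groups compared, 8 under quantile normalization and 10 with voom on recovered reads, and ran from 2 to 5 when single libraries were left out. Every one of those calls was lower. Over all 22667 features, 53, 235 and 244 were called lower with only the 2 groups, quantile normalization and voom. The number of members ran from 276 to 317 when single libraries were left out; it was 227 with 0.5 RPKM added to each mean (204 of them members) and 362 with a mean of at least 0.5 RPKM. With all alternatives, the pax5 count ran from 40 to 66 on day 6. Of 323 alternatives for named features 10 lost the call, all for SMED30008102 on day 6 (its adjusted p ran from 0.00615 to 0.166), and 0 reversed. Replicate numbers did not pair the libraries: the correlation of deviations had a median of 0.00 over 264 pairs of the same number, and 9 of 48 libraries correlated best with their own number. With the replicate number as a block, the counts were 51 and 65 for pax5 on days 6 and 12, 4 for zfp1 on day 6, 62 for zfp1 against pax5 and 99 for pax5 between days. Members with few reads, such as SMED30024477 and SMED30025087, are limited by depth. Without the libraries that stood apart, an alternative added after the data were seen, these counts were 45, 68, 5, 54 and 101.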
